A study of Mus musculus with 4 samples.

Results

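The podocyte is the epithelial cell that wraps the capillaries of the glomerulus with interlocking foot processes. Podocyte genes were followed here in 2 other structures cut by laser from the fetal mouse kidney, the cortical collecting duct and the loop of Henle anlage. The members were 8 genes, Nphs1, Wt1, Synpo, Podxl, Lmx1b, Plce1, Magi2 and Clic5, and all probe sets listed under these symbols in the platform table were taken. A probe set is a group of short DNA probes that together report 1 transcript. For 7 of the 8 genes there were 13 probe sets, out of 34945 probe sets with 1 symbol that stood for 18193 genes. Magi2, a scaffold protein of the slit diaphragm, had no entry in the table used, and its level was not analysed here.

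All samples were wild-type mice of the CD-1 stock at stage E15.5 (embryonic days; Theiler stage 23), of unknown sex. A single array, numbered 3, carried RNA of the cortical collecting duct, an epithelium of ureteric bud origin that gathers urine. The loop of Henle anlage, the forerunner of a nephron segment, had 3 arrays, numbered 1 to 3. Each array held RNA from a pool of about 50 sections from 5 kidneys, amplified over 2 rounds. The labels do not say whether pools shared kidneys or litters, so p-values measure the spread between these samples, which may be partly technical. The single collecting duct array has no replicate, and the number of arrays limits the precision of every difference given here.

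Foot processes of neighbouring podocytes are bridged by the slit diaphragm, a thin junction built around nephrin and its partners. Inside the process an actin skeleton carries the junction, and on the outer face a coat of charged sialoproteins keeps the slits open. Transcription factors that are active from early glomerular stages switch on this programme. In the developing kidney several of these genes are also used outside podocytes: Wt1 in nephron progenitors and mesothelium, Podxl and Clic5 in endothelium.

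The listed segment genes differed in the direction of the labels. Both lists were chosen with earlier results of these data known, so the counts do not test the labels. Of 12 collecting duct genes, 12 had higher values in collecting duct, where 45.1% of all tested genes had. On the collecting duct array 11 of these exceeded each of the 3 anlage arrays, where 17.3% of all genes did. Of 12 loop genes, 12 were lower on the collecting duct array than on all 3 anlage arrays, where 24.3% of all genes were. The anlage arrays differed in signs of RNA quality. The ratio of Gapdh signal at the 3' end to that at the 5' end, a sign of shortened transcripts when high, was 12.05 on the collecting duct array, against 10.25, 54.08 and 26.02 on anlage arrays 1, 2 and 3. For beta-actin it was 3.56 on the collecting duct array, against 3.06, 6.41 and 5.42 on the anlage arrays. Anlage array 2 was the highest in both, and the difference of each tested member is also given without it.

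No podocyte gene passed the test between the collecting duct array and the anlage arrays. Of the 7 genes with a probe set, 6 were bright enough to be tested, and 0 had an adjusted p under 0.05 in limma, against 0% of all 12642 tested genes. At an unadjusted p under 0.05 the count was 0 of the 6 members, against 3.41% of all genes (149 higher, 1.18%, and 282 lower, 2.23%). For all 6 the collecting duct value lay within the range of the 3 anlage arrays, which held for 58.4% of all genes. Without anlage array 1 it held for 3 of the 6 (26.8% of all genes), and without anlage array 2 also for 3 (41.7%), with Wt1, Plce1 and Clic5 then above both anlage arrays left. The value was higher for 3 of the 6 and lower for 3, where 45.1% and 54.9% of all genes were. The median difference of the 6 was 0.0043 on the log2 scale, where that of all tested genes was −0.065. The SD over the 3 anlage arrays had a median of 1.10 among the members, against 0.46 among all tested genes. Without anlage array 2 the medians were 0.60 for the members and 0.36 for all genes. For 5 of the 6 tested members anlage array 2 was the highest of the 4 arrays, as it was for 39% of all genes. That share of all genes was 69.6% with a common median as the scale of the arrays and 30.7% in the values as deposited, while the members' count stayed at 5. When the probe sets of each gene were averaged, it was 4 of 6, where 35.4% of all genes were highest in anlage array 2. In pooled sections, fewer cells of a type and less RNA per cell cannot be told apart.

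**Figure D1:**
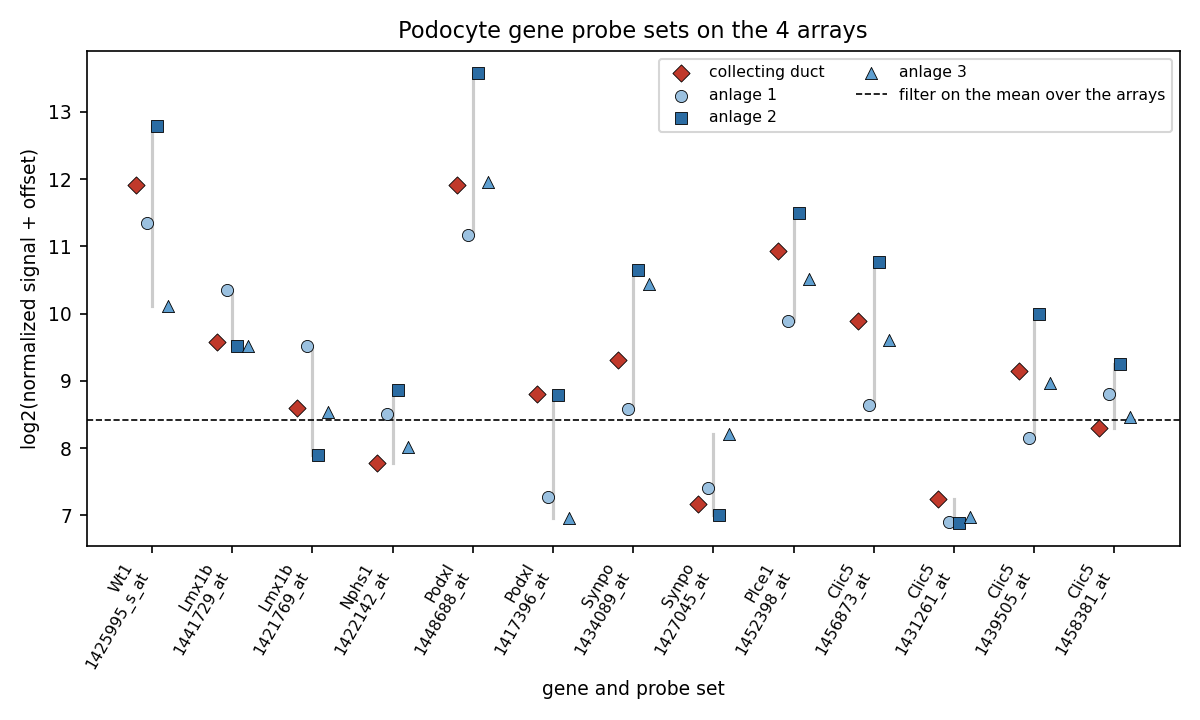
Each column is 1 of the 13 probe sets of the 7 measured podocyte genes, and points show log2(normalized signal + 109.6) on the collecting duct array (diamond) and anlage arrays 1 (circle), 2 (square) and 3 (triangle). Grey lines span the 4 arrays, and the dashed line at 8.416 is the mean a gene's brightest probe set needed to be tested. Squares top the brightest probe sets of Wt1, Podxl, Synpo, Plce1, Clic5 and Nphs1, and a circle tops both probe sets of Lmx1b.

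Wt1 encodes a zinc-finger transcription factor needed for the formation of the kidney and, later, for podocytes. The deposited signal of its 1 probe set, on a linear scale set by the array software, was 3821 on the collecting duct array, against 2591, 7707 and 943 on anlage arrays 1, 2 and 3. After quantile normalization the log2 value, log2(signal + 109.6), was 11.92 on the collecting duct array, against 11.35, 12.79 and 10.12 on the anlage arrays. Anlage arrays 2 and 3 were the highest and the lowest of the 4, so that the collecting duct array fell between replicates of the other structure. The difference was 0.50 ± 1.02 (SE), with a 95% interval from −1.98 to 2.98 (limma, adjusted p = 1.00). Normalized Wt1 signal differed 6.93-fold between anlage arrays 2 and 3. Without anlage array 3 the difference was −0.15, and without anlage array 2 it was 1.10.

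Cap mesenchyme, the nephron progenitor population, also uses Wt1, so its markers are set beside it. Of 11 cap mesenchyme genes 10 were tested, and 7 of the 10 were highest in anlage array 2, where 39% of all genes were. With arrays scaled to a common median it was 7 of 9, where 69.6% of all genes were. The normalized signal summed over the 11 was 24207 on the collecting duct array, against 26957, 48642 and 23628 on anlage arrays 1, 2 and 3. Sall1 was the gene with the most signal in this list. Without it the sums were 17733 on the collecting duct array, against 18189, 40236 and 16414 on the anlage arrays. Sall1 made up 26.7% of the sum on the collecting duct array, against 32.5%, 17.3% and 30.5% on the anlage arrays. Leaving it out could therefore only raise anlage array 2 relative to the other arrays. Six2, the progenitor transcription factor, stood at 9.86 on the collecting duct array, against 10.86, 11.10 and 9.82 on the anlage arrays. Cited1, a marker of the uncommitted progenitors, lay below the filter on the mean, at 8.61 on the collecting duct array, against 8.42, 9.39 and 6.94 on the anlage arrays. The part of these cells in the Wt1 result was not tested.

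Lmx1b encodes a LIM-homeodomain factor that is mutated in human nail-patella syndrome. Its brighter probe set gave a deposited signal of 730.8 on the collecting duct array, against 1428, 396 and 575 on anlage arrays 1, 2 and 3. On the log2 scale these were 9.58 on the collecting duct array, against 10.35, 9.52 and 9.52 on the anlage arrays. Anlage array 1 was the high one, and the other 3 arrays lay close together on this scale. The second probe set kept the same order of arrays, at 8.60 on the collecting duct array, against 9.52, 7.89 and 8.53 on the anlage arrays. Lmx1b thus went against the 5 other tested members. The difference was −0.21 ± 0.59 (SE), with a 95% interval from −1.66 to 1.23 (limma, adjusted p = 1.00). It was 0.070 when anlage array 1 was left out, −0.33 when anlage array 2 was, −0.35 when anlage array 3 was, and 0.052 in the values as deposited.

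Nphs1 encodes nephrin, the adhesion molecule that forms the backbone of the slit diaphragm. Its only probe set was dim, with a mean log2 value of 8.29 over the 4 arrays, just under the level of 8.416 needed to be tested. The deposited signal was 113 on the collecting duct array, against 370, 198 and 148 on anlage arrays 1, 2 and 3. On the log2 scale Nphs1 stood at 7.79 on the collecting duct array, against 8.51, 8.86 and 8.02 on the anlage arrays. The collecting duct array was the lowest on both scales, but the highest array was anlage array 1 in the deposited values and anlage array 2 after normalization. Without the filter the difference was −0.68 (limma, adjusted p = 1.00 over 18193 genes).

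Podxl encodes podocalyxin, the main charged sialoprotein of the podocyte surface, which endothelial cells also carry. The brighter of its probe sets gave a deposited signal of 3796 on the collecting duct array, against 2329, 13879.9 and 3783 on anlage arrays 1, 2 and 3. Its log2 values were 11.91 on the collecting duct array, against 11.17, 13.57 and 11.95 on the anlage arrays. Anlage array 2 stood alone at the top, and the collecting duct array lay next to anlage array 3. After normalization the signal of anlage array 2 was 5.52 times that of anlage array 1, 3.14 times that of anlage array 3 and 3.24 times that of the collecting duct array. The difference between collecting duct and anlage was −0.32 ± 0.95 (SE), with a 95% interval from −2.63 to 1.99 (limma, adjusted p = 1.00). Leaving out anlage array 2 gave 0.33, and leaving out anlage array 1 gave −0.89.

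The other probe set of Podxl was below the filter and ranked the arrays in another order. It stood at 8.80 on the collecting duct array, against 7.27, 8.79 and 6.95 on anlage arrays 1, 2 and 3, so that the collecting duct array and anlage array 2 were nearly level and well above the rest. With the mean of both probe sets the difference of Podxl was 0.40.

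Endothelium, which also carries Podxl, was read from its own markers. Of 16 endothelial genes 14 were tested, and for 14 of the 14 the collecting duct value was under the anlage mean, and for 11 it was under each anlage array, as for 24.3% of all genes. Of the 14, 8 were highest in anlage array 2, where 39% of all genes were. With arrays scaled to a common median it was 11 of 14, where 69.6% of all genes were. The normalized signal summed over the 16 was 10036 on the collecting duct array, against 16828, 27915 and 28903 on anlage arrays 1, 2 and 3. Without Esam, the gene with the most signal in this list, the sums were 7689 on the collecting duct array, against 13425, 24958 and 23459 on the anlage arrays. Kdr, a receptor for vascular endothelial growth factor, stood at 8.50 on the collecting duct array, against 9.91, 10.22 and 11.42 on the anlage arrays. Pecam1 and Tie1 lay below the filter. The part of endothelial cells in the Podxl result was not tested.

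Synpo encodes synaptopodin, which binds actin in foot processes. Its brighter probe set had a deposited signal of 582 on the collecting duct array, against 397, 1251 and 1218 on anlage arrays 1, 2 and 3. The log2 values were 9.32 on the collecting duct array, against 8.58, 10.65 and 10.45 on the anlage arrays. Anlage arrays 2 and 3 were both high and anlage array 1 was the lowest, with the collecting duct array between them. The difference was −0.58 ± 0.91 (SE), with a 95% interval from −2.79 to 1.64 (limma, adjusted p = 1.00). Leaving out anlage array 1 gave −1.34, and leaving out anlage array 2 gave −0.17. The other probe set of Synpo lay below the filter, at 7.17 on the collecting duct array, against 7.41, 7.01 and 8.22 on the anlage arrays, with anlage array 2 the lowest.

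Plce1 encodes phospholipase C epsilon, an enzyme whose loss causes nephrotic syndrome in humans. The deposited signal of its 1 probe set was 1944 on the collecting duct array, against 1067, 2705 and 1284 on anlage arrays 1, 2 and 3. On the log2 scale Plce1 stood at 10.94 on the collecting duct array, against 9.89, 11.50 and 10.51 on the anlage arrays. From high to low the order was anlage array 2, collecting duct, anlage array 3 and anlage array 1, an order shared by 7.74% of all tested genes. The difference was 0.30 ± 0.74 (SE), with a 95% interval from −1.502 to 2.11 (limma, adjusted p = 1.00). Leaving out anlage array 1 gave −0.073, and leaving out anlage array 2 gave 0.68.

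Clic5 encodes a chloride intracellular channel family protein that sits with ezrin and podocalyxin at the foot process membrane. The brightest of its 4 probe sets had a deposited signal of 932 on the collecting duct array, against 418, 1408 and 619 on anlage arrays 1, 2 and 3. Its log2 values were 9.90 on the collecting duct array, against 8.64, 10.77 and 9.61 on the anlage arrays. The arrays stood in the same order as for Plce1. The difference was 0.22 ± 0.87 (SE), with a 95% interval from −1.90 to 2.34 (limma, adjusted p = 1.00). Leaving out anlage array 1 gave −0.32, leaving out anlage array 2 gave 0.73, and averaging its probe sets gave 0.030.

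The probe sets of Clic5 did not all agree. The next brightest repeated the order, at 9.15 on the collecting duct array, against 8.14, 9.99 and 8.97 on anlage arrays 1, 2 and 3. Another stood at 8.29 on the collecting duct array, against 8.81, 9.25 and 8.47 on the anlage arrays, so that the collecting duct array was the lowest and the difference was −0.55. The last had deposited signals of 39.98 on the collecting duct array, against 13.6, 4.85 and 16.7 on the anlage arrays and lay below the filter.

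**Figure D2:**
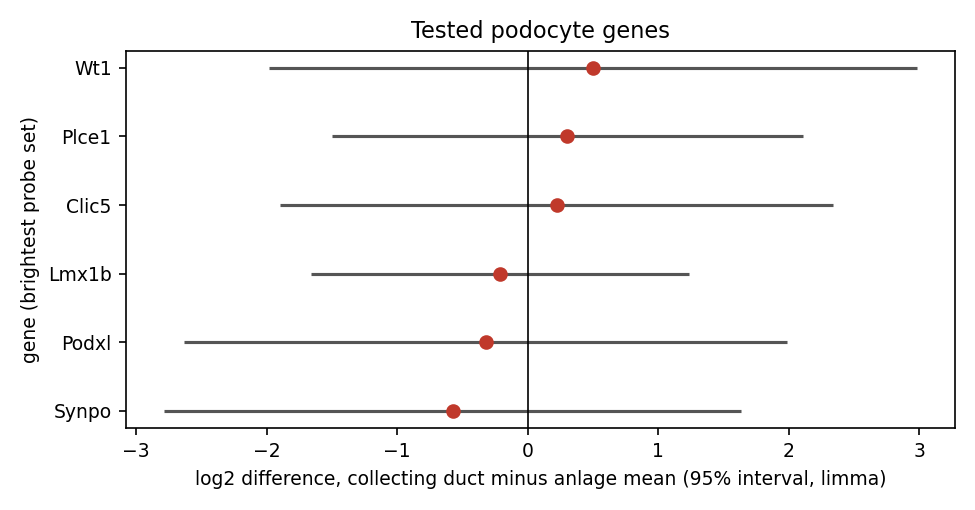
Points show the log2 difference of the collecting duct array minus the mean of 3 anlage arrays for the brightest probe set of each of the 6 tested podocyte genes, and bars show the 95% interval from limma. The differences run from 0.50 for Wt1 to −0.58 for Synpo, and all 6 intervals cross 0.

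The tested members differed in how alike their profiles were. Likeness was measured as the root-mean-square distance between log2 values of the brightest probe sets, each centred on its mean over the 4 arrays, with smaller values for more similar profiles. Of the 15 pairs of tested members, Plce1 and Clic5 were the closest at 0.19, followed by Podxl and Clic5 at 0.29 and Podxl and Plce1 at 0.40. Synpo lay at 0.51 from Clic5. Wt1 lay 0.73 or more from every other tested member, and Lmx1b 0.90 or more. Anlage array 2 was the highest and anlage array 1 the lowest for Synpo, Podxl, Plce1 and Clic5, which held for 22.5% of all tested genes.

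**Figure D3:**
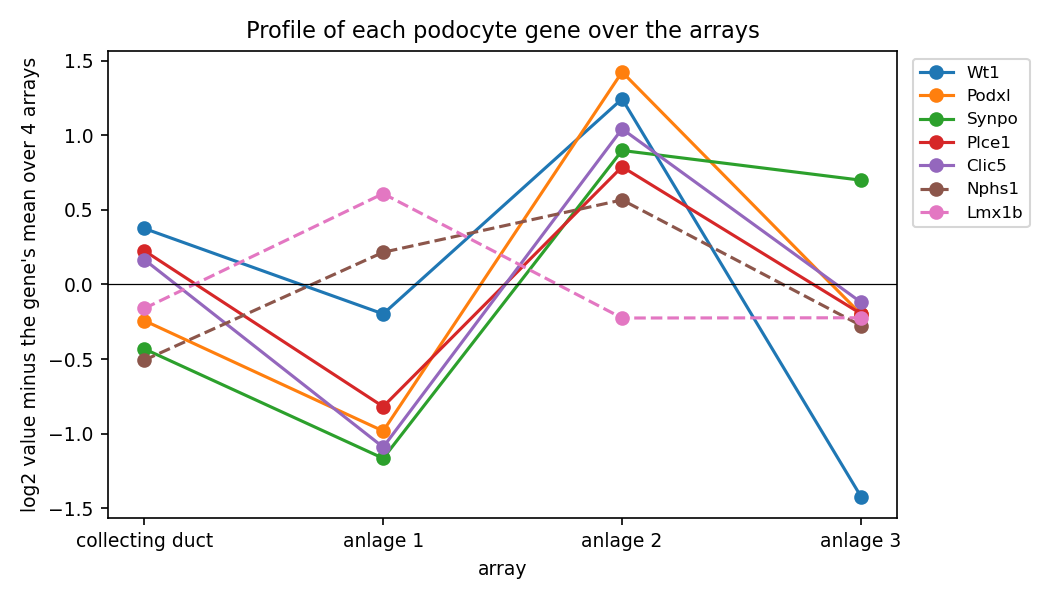
For each of the 7 measured podocyte genes, the log2 value of the brightest probe set minus the gene's mean over the 4 arrays is plotted for the collecting duct array and anlage arrays 1 to 3, and lines only join the points of a gene. Solid lines (Wt1, Podxl, Synpo, Plce1, Clic5) peak at anlage array 2, as does the dim Nphs1 (dashed), while Lmx1b (dashed) peaks at anlage array 1.

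Since Plce1 and Clic5 gave the closest profiles, 300 bases around their RefSeq start sites are shown, as listed for build GRCm38.p6 at chr19:38523947-38524246 (Plce1, plus strand) and chr17:44188322-44188621 (Clic5, plus strand). Capitals mark GC boxes, the motif GGGCGG read on either strand, which is a binding motif of Sp-family factors.
Plce1: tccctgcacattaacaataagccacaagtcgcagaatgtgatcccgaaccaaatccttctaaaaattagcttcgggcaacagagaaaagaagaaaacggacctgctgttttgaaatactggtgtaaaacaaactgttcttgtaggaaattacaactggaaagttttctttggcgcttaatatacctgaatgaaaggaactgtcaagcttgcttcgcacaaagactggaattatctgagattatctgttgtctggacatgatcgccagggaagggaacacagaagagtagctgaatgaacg
Clic5: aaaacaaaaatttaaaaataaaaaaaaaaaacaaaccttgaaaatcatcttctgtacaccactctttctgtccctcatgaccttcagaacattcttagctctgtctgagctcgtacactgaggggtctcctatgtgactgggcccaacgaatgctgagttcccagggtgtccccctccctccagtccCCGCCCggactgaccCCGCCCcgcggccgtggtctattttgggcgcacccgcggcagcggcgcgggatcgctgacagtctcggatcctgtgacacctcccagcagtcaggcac
The Clic5 stretch held 2 GC boxes, both on the minus strand, and the Plce1 stretch held 0, where 35.7% of 32851 listed promoters of the same length held at least 1. The EGR and WT1 type motif GCGNGGGCG, present in 5.55% of promoters, and the LIM homeodomain motif TAATTA, present in 5.29%, were found on neither strand of either stretch. The bases G and C made up 41% of the Plce1 stretch and 54.3% of the Clic5 stretch. Of the other members, Lmx1b, Nphs1 and Magi2 had listed promoters.

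Outside the member list, the 3 tested genes nearest in profile were found for each member over the 4 arrays. For Plce1 they were Enpep, Gmppb and Exd2. Enpep, which encodes aminopeptidase A and is itself expressed by podocytes and by proximal tubule, lay at a distance of 0.030. Enpep stood at 12.49 on the collecting duct array, against 11.48, 13.05 and 12.14 on the anlage arrays. For Podxl they were Chrna7, 5530601H04Rik and Negr1, for Clic5 Moxd1, Rtkn2 and Atg12, for Synpo Gypc, Rcn3 and Anxa3, and for Lmx1b Slc16a11, Cltb and Glrx2. Wt1 had 5 genes within 0.2, the fewest of the 6, and its nearest were St8sia1, Acpp and 9430091E24Rik. Podxl had 31 genes within 0.2, Clic5 110, Synpo 139, Plce1 255 and Lmx1b 438. Values were centred but not scaled for this distance. The counts fell as the range of a member's log2 values over the arrays rose, from 0.83 for Lmx1b to 2.67 for Wt1. With 4 arrays many profiles coincide, and the distances only describe these arrays.

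Other genes of the podocyte programme did not pass the test either. Of 48 further genes in a list chosen with earlier results known, 44 had a probe set and 42 were tested. In limma 0 of the 42 passed over all genes, against 0% of all tested genes, and unadjusted p-values under 0.05 went with 2 higher and 1 lower value, where the shares of all genes were 1.18% and 2.23%. The median difference of the 42 was 0.043, against −0.065 for all genes, with 23 higher and 19 lower values. The collecting duct value exceeded each of the 3 anlage values for 7 genes and was under each of them for 6, where 17.3% and 24.3% of all genes did so. Trpc6 and Col4a3 were below the filter.

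Npnt, Col4a4 and Lama5 had the largest positive differences of this list. Npnt, which encodes the integrin ligand nephronectin of the ureteric bud and podocyte basement membranes, stood at 14.96 on the collecting duct array, against 11.25, 13.43 and 12.55 on the anlage arrays. Its difference was 2.55 ± 0.85 (SE), a 5.85-fold higher level that did not pass (limma, unadjusted p = 0.0238, adjusted p = 1.00). With the mean of its 5 probe sets it was 1.54. Lama5, the laminin alpha chain of mature epithelial basement membranes, stood at 12.83 on the collecting duct array, against 10.15, 10.87 and 10.27 on the anlage arrays. The collecting duct array lay clear of the anlage arrays for Lama5, with a difference of 2.40 ± 0.57 (SE; limma, unadjusted p = 0.00532, adjusted p = 1.00).

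The collagen IV chain Col4a4 stood at 11.68 on the collecting duct array, against 10.29, 7.51 and 9.97 on the anlage arrays, a difference of 2.43 ± 1.13 (SE). Its anlage values spanned more than the difference itself, which was 1.43 without anlage array 2 and 1.40 when its probe sets were averaged. A second Col4a4 probe set above the filter stood at 10.19 on the collecting duct array, against 7.92, 10.37 and 7.17 on the anlage arrays. There anlage array 2 was the highest of all arrays, not the lowest. Vegfa, the endothelial growth factor that podocytes and tubules secrete, differed by 1.04 ± 1.09 and Col4a5 by 0.83 ± 1.13. In the brightest probe set of both, anlage array 1 was the highest and anlage array 2 the lowest. The actin crosslinker Actn4 differed by 0.72 ± 1.06 in the same order of arrays. Without anlage array 2 these became 0.37 for Vegfa, 0.11 for Col4a5 and −0.065 for Actn4. The second probe set of Vegfa ranked the arrays otherwise, at 10.86 on the collecting duct array, against 9.97, 10.52 and 9.85 on the anlage arrays. That of Col4a5 did too, at 10.93 on the collecting duct array, against 10.00, 10.29 and 10.18 on the anlage arrays. In both the collecting duct array was the highest, and anlage array 2 was the highest of the anlage arrays.

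At the other end of the list was Ptpro, a receptor tyrosine phosphatase of the podocyte surface. It stood at 10.02 on the collecting duct array, against 12.00, 12.67 and 11.51 on the anlage arrays, the collecting duct array being clearly the lowest. The difference was −2.04 ± 0.63 (SE), a 4.12-fold lower level that did not pass (limma, unadjusted p = 0.0173, adjusted p = 1.00). Its second probe set was below the filter and differed by 0.072, and the mean of both by −0.98. Anln, an actin-binding protein that also acts in cell division, differed by −1.11 ± 0.59, the forkhead factor Foxc2 by −0.93 ± 0.71, the semaphorin Sema3g by −0.85 ± 0.64 and the ezrin partner Slc9a3r2 by −0.66 ± 0.72. Without anlage array 2 Foxc2 differed by −0.46 and Sema3g by −0.48, and Slc9a3r2 by −0.30, with another of its probe sets then the brightest. Anln with the mean of its probe sets was −0.60.

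Partners of nephrin and a podocyte transcription factor differed by little more than their errors or less. Kirrel, which encodes the slit diaphragm protein Neph1, stood at 11.03 on the collecting duct array, against 9.96, 12.40 and 11.47 on the anlage arrays, again highest in anlage array 2 and lowest in anlage array 1. Its difference was −0.25 ± 0.96 (SE), 0.28 without anlage array 2 and −0.96 without anlage array 1. Cd2ap, an adaptor that links nephrin to actin, differed by 0.59 ± 0.47 and was 15.16 on the collecting duct array, against 14.66, 14.04 and 15.02 on the anlage arrays. Tcf21, a factor of podocytes and stroma, stood at 11.92 on the collecting duct array, against 11.63, 12.29 and 12.31 on the anlage arrays, a difference of −0.15 ± 0.55.

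**Figure D4:**
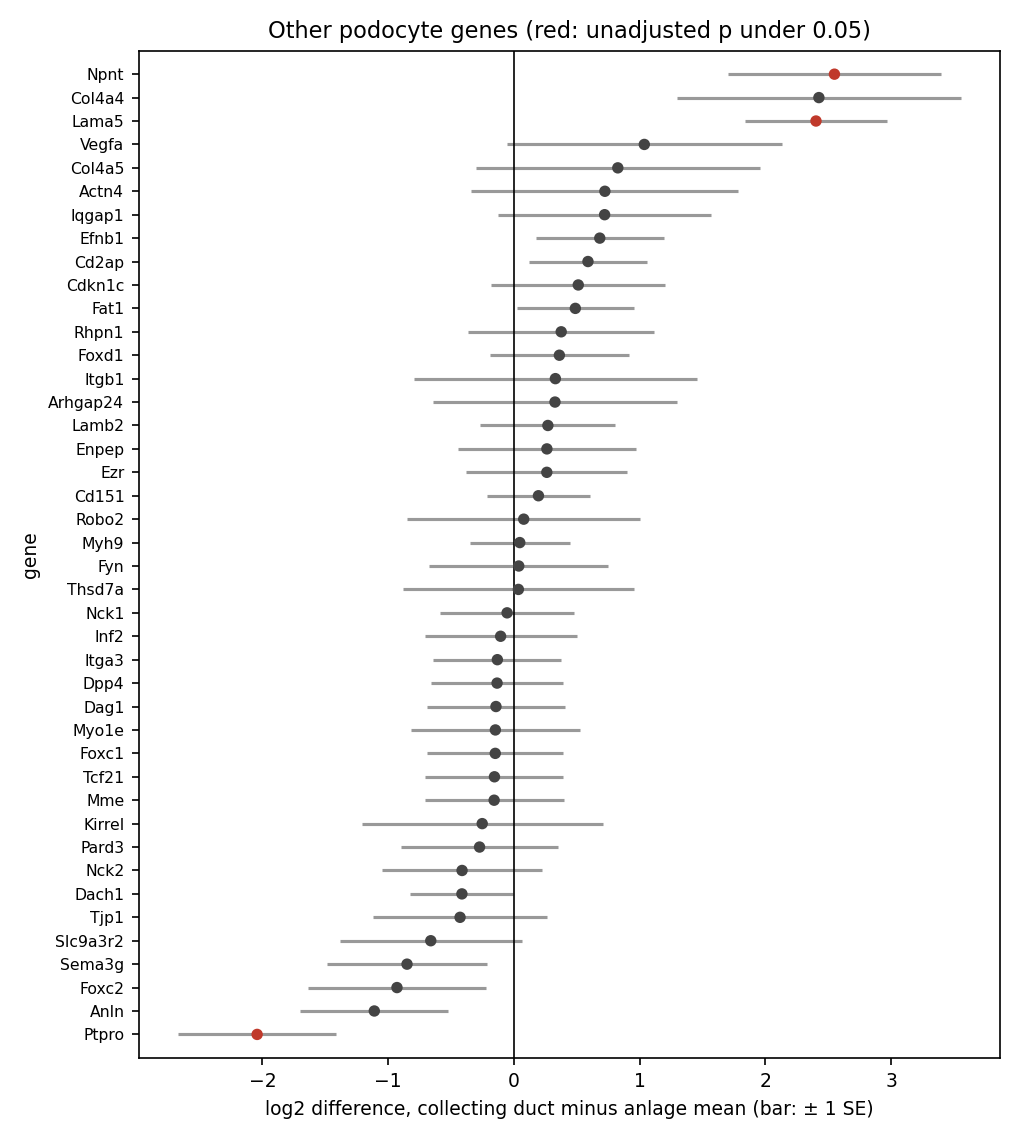
Points show the log2 difference of the collecting duct array minus the mean of 3 anlage arrays for the 42 tested genes of the further podocyte list, with bars of 1 SE, and red marks an unadjusted p under 0.05. Npnt, Col4a4 and Lama5 lie above 2, Ptpro lies below −2, and the other genes lie between −1.11 and 1.04.

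The orders of the arrays varied among the further podocyte genes. Like Podxl, Synpo, Plce1 and Clic5, 9 of the 42 (21.4%) were highest in anlage array 2 and lowest in anlage array 1, close to the 22.5% of all genes. They were Kirrel, Nck2, Fyn, Tjp1, Myo1e, Lamb2, Thsd7a, Enpep and Slc9a3r2. The other probe sets of Slc9a3r2 that passed the filter did not keep that order. Neither did the second probe set of Kirrel, which was below the filter. Another 11 of the 42 (26.2%) were highest in anlage array 1 and lowest in anlage array 2, as Lmx1b was, where 11.3% of all genes were. They were Actn4, Arhgap24, Iqgap1, Foxd1, Vegfa, Cdkn1c, Col4a5, Mme, Dag1, Itgb1 and Pard3, though the second probe sets of Vegfa and Col4a5 did not keep that order. These 11 follow the reverse order of the extremes of the Gapdh and beta-actin end ratios, which were highest in anlage array 2 and lowest in anlage array 1, and the 9 follow that order. The counts depended on the scale and on the choice of probe set. With a common median of the arrays they were 20 (49.7% of all genes) and 5 (3.71%), and in the values as deposited 9 (17.8%) and 11 (19%). With the probe sets of each gene averaged they were 5 of 41 (12.2%) and 12 of 41 (29.3%), where 19% and 12.7% of all genes were. The part of transcript shortening in these profiles was not tested.

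Markers of further cell types that pooled sections could hold were read in the same way, with sums over all genes of a list that had a probe set. Such a sum is set largely by the genes with the most signal. Early nephron genes (10 of 12 tested) summed to 43898 on the collecting duct array, against 91191, 75780 and 84459 on anlage arrays 1, 2 and 3. Without Ccnd1, the gene with the most signal in this list, the sums were 24810 on the collecting duct array, against 35317, 39784 and 29736 on the anlage arrays. Of the 10, 6 were highest in anlage array 2, where 39% of all genes were. With arrays scaled to a common median it was 10 of 10, where 69.6% of all genes were. Stromal genes (13 of 13) summed to 159406 on the collecting duct array, against 147377, 148259 and 296193 on the anlage arrays, high in anlage array 3. Mesothelial genes, of interest because mesothelium expresses Wt1, were mostly dim: 4 of 9 were tested, and Msln, Muc16, Gpm6a, Krt14 and Bnc1 were below the filter. The mesothelial genes summed to 3376 on the collecting duct array, against 1580, 1509 and 1935 on the anlage arrays. Without Lrrn4, the gene with the most signal in this list, the sums were 1702 on the collecting duct array, against 1555, 1338 and 1825 on the anlage arrays.

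Mesangial genes (8 of 10 tested, Gata3 among them) summed to 52176 on the collecting duct array, against 27702, 46927 and 100739 on the anlage arrays. The median difference over the 8 was −1.07. Of the 8, 7 were lower on the collecting duct array than the anlage mean, where 54.9% of all genes were. Among the 7, Pdgfrb is also on the stromal list, Itga8 on the cap mesenchyme list and Sox17 on the endothelial list. Gata3, which is also on the collecting duct list, was the exception, at 15.17 on the collecting duct array, against 11.95, 12.50 and 10.46 on the anlage arrays. Acta2 made up 73.2% of the sum on anlage array 3. Blood, platelet and myeloid genes (8 of 12) summed to 10544 on the collecting duct array, against 13415, 21267 and 11825 on the anlage arrays. Without the globin gene Hbb-y these sums were 5476 on the collecting duct array, against 9618, 10222 and 7528 on the anlage arrays, so that anlage arrays 1 and 2 were nearly level. Of the 8 tested, 3 were highest in anlage array 2, near the 39% of all genes. Proximal tubule genes (11 of 12) summed to 6839 on the collecting duct array, against 20801, 19235 and 20594 on the anlage arrays. The 7 measured podocyte genes summed to 11484 on the collecting duct array, against 7539, 25941 and 8938 on the anlage arrays. Without Podxl the sums were 7751 on the collecting duct array, against 5348, 13853 and 5089 on the anlage arrays. The 44 further podocyte genes with a probe set summed to 416561 on the collecting duct array, against 436791, 292492 and 322600 on the anlage arrays. The part of other cell types in the podocyte gene values was not tested.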

How the data were processed

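Arrays were hybridised with amplified RNA of 4 laser-captured pools, 1 of cortical collecting duct and 3 of loop of Henle anlage. The deposited values are probe set intensity on a linear scale, made with GCOS per the submitters' processing notes; which version is not given in the sources used here. Every array had been scaled to a mean of 1500 after 2% was trimmed at each end, and deposited medians ran from 207 to 526.

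The arrays were quantile normalized and put on a log2(signal + 109.6) scale, with the 25th percentile of the signal as offset. This understates differences of dim genes. Of 45101 probe sets 64 were controls, 34945 had 1 symbol, 932 several and 9160 no entry. The brightest probe set stood for each gene, and the 12642 of 18193 genes with a mean of at least 8.416 (40th percentile) were tested with limma 3.58.1 in R 4.3.3 (lmFit, eBayes with a trend, two-sided, Benjamini-Hochberg over all tested genes, threshold 0.05). The fit had 2 residual degrees of freedom, which came from the anlage arrays, and 4.04 prior ones. The lone collecting duct array was taken to vary as they do. Adjusted p-values printed as 1.00 are rounded.

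The members and all gene lists were chosen with earlier results of these data known. All probe sets of the members are described. Of the further podocyte genes those named were the 5 highest, the 5 lowest and a fixed set. The array-order groups, Enpep, Six2, Cited1, Kdr, Esam, Sall1, Ccnd1, Lrrn4, Gata3, Acta2 and Hbb-y were named after their values were seen. For each tested member the 3 genes nearest in profile were found. Promoters are from RefSeq, build GRCm38.p6.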

Additional observations from a re-analysis of the deposited data

How the results depend on the processing

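No paired analysis was possible because the groups share only replicate number 3. Across the 12 alternatives, the lowest adjusted p of any tested member was 0.421, and 65 of 72 member values kept their sign. Part of these could not turn. Changing only the filter or the intensity trend, or testing each probe set on its own, left the difference of the brightest probe set as it was. Averaging probe sets likewise left Wt1 and Plce1, with 1 probe set each, as they were. When each anlage array was left out in turn, limma called 0 to 3 genes higher and 0 to 11 lower over all genes. The 3 and the 11 came without anlage array 2, among 12455 tested genes, and included genes of the collecting duct and loop lists. There 0 of the 6 tested members and 0 of 41 tested further podocyte genes were called. With so few genes called among all those tested, these counts of 0 do not set the podocyte genes apart. In an alternative chosen after seeing the data, the number of tested members with the collecting duct value within the anlage range was 3 without anlage array 1 (26.8% of all genes) and 3 without anlage array 2 (41.7%), against 6 with all arrays or without array 3; with fewer arrays the range is narrower by construction. Leaving out 1 anlage array, the difference ran from −0.15 to 1.10 for Wt1, from −0.89 to 0.33 for Podxl, from −0.35 to 0.070 for Lmx1b, from −0.073 to 0.68 for Plce1, from −0.32 to 0.73 for Clic5, from −0.065 to 1.41 for Actn4 and from −0.96 to 0.28 for Kirrel. The sign also turned with the mean of all probe sets for Podxl (0.40) and Kirrel (0.053), in the deposited values for Lmx1b (0.052), and in a further probe set of Clic5 (−0.55); the cause was not tested. Scaling to a common median gave a median difference of −0.24 over all genes, against −0.065 after quantile normalization. With no detection calls used here, dim probe sets such as that of Nphs1 cannot be told from background.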
